A study of Schizosaccharomyces pombe with 24 samples.

Results

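Polyadenylated RNA of 2 fission yeast mutants was compared gene by gene: pfs2-E104A, with alanine in place of glutamate in the Pfs2 protein, and pta1-T524M, with methionine in place of threonine in the Pta1 protein. Each was grown as 3 biological replicates, so the comparison uses 6 of the 24 libraries of the series and all 6287 genes that carried enough reads. Schizosaccharomyces pombe is a unicellular ascomycete, and all strains were haploid and grown to log phase in rich YES medium at 30 °C. The pfs2-E104A strain and the pta1-T524M strain are both h- in mating type, and both carry a wild-type asp1 gene tagged with the drug resistance cassette kanMX. The 3 WT libraries, also from an h- strain, served as the outside standard and carry no such cassette by their labels. A difference between either mutant and WT therefore cannot be told apart from an effect of the asp1 marker, whereas the direct comparison of the mutants holds the marker constant. The labels name no second isolate of either mutant, so each group stands for 1 strain. By its title, the series concerns mutations of the cleavage and polyadenylation machinery that suppress premature transcription termination.

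Cleavage and polyadenylation factor (CPF) is the large complex that cuts a nascent transcript at its 3′ end, adds the poly(A) tail and helps RNA polymerase II to terminate. Pfs2 is a WD-repeat scaffold protein of the poly(A) polymerase module, and Pta1 is a scaffold of the complex that joins its phosphatase module to the rest. In fission yeast, termination of lncRNAs transcribed upstream of the phosphate acquisition genes pho1, pho84 and tgp1 governs whether those genes are expressed. Asp1 makes and removes the inositol pyrophosphates that act on this termination step.

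The pfs2-E104A libraries held 19.37 to 25.85 M counts (M is 1e6), the pta1-T524M libraries 24.24 to 28.16 M and the WT libraries 25.3 to 28.11 M. No replicate pair within the 3 groups was within sampling noise, with a chi-square per degree of freedom of 4.07 to 12.4. Summed over 6 markers of M cells (the M-factor genes mfm1, mfm2 and mfm3, and mam1, mam2 and mam3), levels were 143 to 162 CPM (TMM-scaled counts per 1e6 counts of the library) in pfs2-E104A, 124 to 138 in pta1-T524M and 149 to 176 in WT. Over 4 markers of P cells the sums were 44.8 to 51.6 CPM in pfs2-E104A, 50.7 to 54.9 in pta1-T524M and 50.8 to 52.8 in WT. All 10 markers had reads in every one of these groups. The h+ cft1-L249Q libraries of the series gave sums of 91.8 to 99.4 CPM for the M markers and 43.1 to 46.4 CPM for the P markers, so the P markers did not set h+ apart from h- cells in this medium. The M markers did not all move alike. In cft1-L249Q mfm2 had 2.18, 1.65 and 1.74 CPM, against at least 33.1 CPM in each library of the h- groups above. There mam1 and mam2 were lower too, mam3 was slightly higher, and mfm1 and mfm3 overlapped the h- levels. Mating type and the cft1 mutation cannot be told apart here.

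The mutants differed at many genes, mostly by small amounts. A gene was called when its adjusted p was below 0.05 (edgeR's quasi-likelihood test with Benjamini-Hochberg adjustment over all genes tested). In pfs2-E104A relative to pta1-T524M, 1448 genes were higher, which is 23.0% of those tested, and 1388 were lower, which is 22.1%, together 45.1%. Of the called genes, 79.3% differed by less than 1.5-fold, and the median size of a called difference was 0.27 on the log2 scale. Only 122 genes (1.94%) were at least 2-fold higher and 127 (2.02%) at least 2-fold lower. The median difference over all genes was 0.0066 (log2). Genes with large differences included those of glucose transport, uracil use and sterol and haem synthesis on the higher side, and of redox enzymes, chaperones and glycolysis on the lower side.

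**Figure D1:**
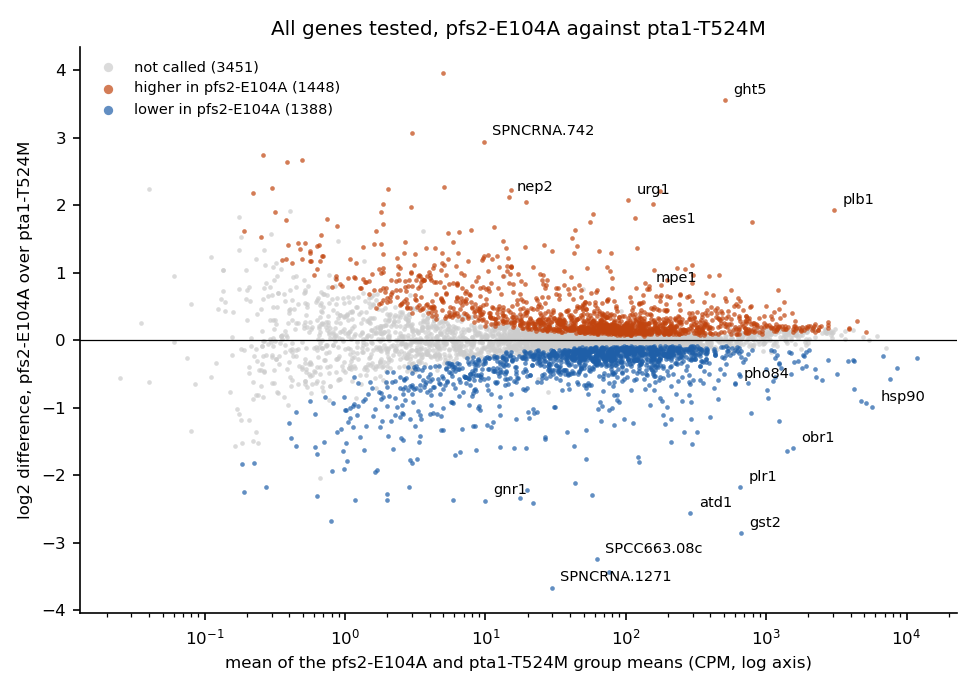
Each point is 1 of the 6287 genes tested, placed by its mean level in the pfs2-E104A and pta1-T524M groups (CPM, log axis) and by its log2 difference, pfs2-E104A over pta1-T524M. Orange points (1448) were called higher and blue points (1388) called lower in pfs2-E104A; most lie close to 0, with ght5 far above and gst2, SPCC663.08c and SPNCRNA.1271 far below.

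The mutated genes were checked first, although a point mutation leaves no trace in a gene count. The pfs2 gene had 45.7, 44.5 and 43.8 CPM in pfs2-E104A and 52.3, 50.9 and 50.3 CPM in pta1-T524M, against 51.9, 47.2 and 48.1 CPM in WT. All pfs2-E104A libraries lay below all pta1-T524M libraries, a log2 difference of -0.19 ± 0.05 (SE; edgeR adjusted p = 0.0014). The pta1 gene had 166, 159 and 155 CPM in pfs2-E104A and 161, 155 and 161 CPM in pta1-T524M, against 154, 144 and 148 CPM in WT. The mutant groups overlapped at pta1, and the log2 difference was 0.01 with a 95% interval of -0.07 to 0.08.

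The marked locus itself differed between the strains although both carry the cassette. The asp1 gene, which encodes the inositol pyrophosphate kinase and pyrophosphatase, had 155, 160 and 133 CPM in pfs2-E104A and 194, 182 and 186 CPM in pta1-T524M, against 127, 129 and 131 CPM in WT. It was lower in pfs2-E104A than in pta1-T524M by a log2 difference of -0.33 ± 0.05 (edgeR adjusted p = 1.1e-05). SPNCRNA.1144, a lncRNA that overlaps asp1 on the opposite strand, had 29.6, 34.8 and 33.9 CPM in pfs2-E104A and 16.6, 17.4 and 15.6 CPM in pta1-T524M, against 0.875, 0.557 and 0.937 CPM in WT. It was thus far above WT in every library of both marked strains, and 1.98-fold higher in pfs2-E104A than in pta1-T524M (log2 0.99 ± 0.09, edgeR adjusted p = 8.6e-09). No source used here states whether reads were counted by strand, and the counts of such overlapping pairs are therefore uncertain.

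Among the phosphate acquisition genes, only pho84 separated the mutants clearly. The phosphate transporter gene pho84 had 519, 444 and 447 CPM in pfs2-E104A and 674, 826 and 714 CPM in pta1-T524M, against 1540, 1495 and 1433 CPM in WT. Both mutants were below WT, and pfs2-E104A was the lower of them by a log2 difference of -0.65 ± 0.08 (edgeR adjusted p = 6.5e-07). The acid phosphatase gene pho1 had 345, 285 and 319 CPM in pfs2-E104A and 254, 312 and 254 CPM in pta1-T524M, against 1178, 1291 and 1156 CPM in WT. Here the mutant groups overlapped, and the log2 difference of 0.21 ± 0.08 (edgeR adjusted p = 0.035) lost its call when the 6 libraries were fitted alone (adjusted p = 0.0909), without pfs2-E104A replicate 1 (log2 0.14, adjusted p = 0.212) or 3 (0.20, 0.089), and without pta1-T524M replicate 1 (0.15, 0.183) or 3 (0.15, 0.17). The glycerophosphodiester transporter gene tgp1 had 15.6, 14.1 and 12.5 CPM in pfs2-E104A and 14, 14.9 and 13.2 CPM in pta1-T524M, against 25.1, 22.2 and 24.2 CPM in WT. The mutants were not distinguished at tgp1, where the 95% interval of the log2 difference was -0.15 to 0.18.

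The upstream lncRNAs did not all lie on the same side. The lncRNA nc-pho1, upstream of pho1, had 4.51, 4.76 and 4.14 CPM in pfs2-E104A and 6.36, 5.69 and 6 CPM in pta1-T524M, against 3.92, 4.93 and 4.61 CPM in WT, and was lower in pfs2-E104A (log2 -0.43 ± 0.11, edgeR adjusted p = 0.0028). The lncRNA prt2, upstream of pho84, had 36.5, 38.3 and 36.3 CPM in pfs2-E104A and 30.8, 29.3 and 30.4 CPM in pta1-T524M, against 27.9, 26.9 and 24.9 CPM in WT, and was higher in pfs2-E104A (log2 0.29 ± 0.05, edgeR adjusted p = 5.3e-05). At nc-tgp1 the groups overlapped, with a log2 difference of -0.06 ± 0.08 and an edgeR adjusted p of 0.54. Both prt2 and nc-pho1 overlap their mRNA on the same strand in the annotation used, so their counts depend on how shared reads were assigned.

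Of 14 further phosphate and inositol pyrophosphate genes tested, 7 were lower (50.0%) and 3 higher (21.4%) in pfs2-E104A than in pta1-T524M, against 22.1% and 23.0% of all genes, with a median log2 difference of -0.11. The largest difference was at pho842, a second phosphate transporter gene of the pho84 family, with 59, 47.5 and 51.6 CPM in pfs2-E104A and 108, 99 and 109 CPM in pta1-T524M, against 128, 115 and 134 CPM in WT. Its 3 pfs2-E104A libraries were the lowest (log2 -1.0 ± 0.08, edgeR adjusted p = 6.6e-10). The polyphosphate synthesis genes vtc4 (log2 -0.57 ± 0.07) and vtc2 (-0.51 ± 0.06) were lower as well, whereas aps1, which encodes a diadenosine and inositol pyrophosphate hydrolase, was higher (0.30 ± 0.04).

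The hexose transporter gene ght5 showed the largest difference among protein-coding genes with a symbol. Ght5 is the main high-affinity glucose transporter of fission yeast and is needed for growth at low glucose. It had 878, 1151 and 775 CPM in pfs2-E104A and 68.5, 76.5 and 92.1 CPM in pta1-T524M, against 172, 333 and 212 CPM in WT. The 3 groups did not overlap, with pfs2-E104A above WT and pta1-T524M below it. Between the mutants this was an 11.8-fold difference (log2 3.56 ± 0.24, edgeR adjusted p = 3.7e-11). The gene next to it, upstream and on the same strand, is SPCC1235.18, annotated as an uncharacterized protein. SPCC1235.18 had 8.36, 12.7 and 6.82 CPM in pfs2-E104A and 0.706, 0.506 and 0.545 CPM in pta1-T524M, against 1.75, 3.14 and 1.84 CPM in WT (log2 3.96 ± 0.34, edgeR adjusted p = 2.7e-09). The downstream neighbour dga1, a diacylglycerol acyltransferase gene on the same strand, averaged 134 CPM in pfs2-E104A, 143 in pta1-T524M and 135 in WT, and was slightly lower in pfs2-E104A than in pta1-T524M (log2 -0.10 ± 0.03, edgeR adjusted p = 0.0070).

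Several other members of the glucose transport and sensing list were higher in pfs2-E104A, as ght5 was. Of its 21 members tested, 12 were higher in pfs2-E104A and 2 were lower, against 23.0% and 22.1% of all genes, with a median log2 difference of 0.18. The transporter gene ght1 had 11.2, 13.6 and 10.9 CPM in pfs2-E104A and 4.2, 3.33 and 3.93 CPM in pta1-T524M, against 4.71, 7.04 and 4.65 CPM in WT. The transporter gene ght4 had 43.7, 60.1 and 42.2 CPM in pfs2-E104A and 23.2, 23.8 and 24.1 CPM in pta1-T524M, against 20.4, 26.8 and 21.5 CPM in WT. Both were higher in pfs2-E104A than in either other group, by log2 differences over pta1-T524M of 1.63 ± 0.15 for ght1 and 1.03 ± 0.11 for ght4. The abundantly expressed ght8 had 1564, 1491 and 1549 CPM in pfs2-E104A and 886, 918 and 936 CPM in pta1-T524M, against 1147, 1347 and 1171 CPM in WT, and again the 3 groups did not overlap (log2 0.75 ± 0.06). The transporter gene ght2 (log2 0.67 ± 0.06) and scr1, which encodes a repressor active in glucose (0.77 ± 0.11), were also higher. The opposite direction was seen at ght3, with 1.66, 1.8 and 1.42 CPM in pfs2-E104A and 3.49, 3.92 and 3.09 CPM in pta1-T524M, against 4.46, 3.62 and 5.29 CPM in WT (log2 -1.10 ± 0.21, edgeR adjusted p = 0.00023). The transporter genes ght6 and ght7 did not pass the test.

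Genes of alternative carbon sources and of glycolysis lay mostly the other way. Of 16 glucose-repressed carbon source genes, 9 were lower and 3 higher in pfs2-E104A, against 22.1% and 23.0% of all genes, with a median of -0.22. The aldehyde dehydrogenase gene atd1 stood out, with 91.6, 64.5 and 94.4 CPM in pfs2-E104A and 582, 442 and 457 CPM in pta1-T524M, against 383, 319 and 387 CPM in WT. It was 5.9-fold lower in pfs2-E104A than in pta1-T524M (log2 -2.56 ± 0.14, edgeR adjusted p = 9.0e-13). The fructose bisphosphatase gene fbp1 was lower (log2 -0.71 ± 0.17), whereas the alcohol dehydrogenase gene adh4 (0.89 ± 0.05) and the maltase gene mal1 (0.55 ± 0.06), were higher.

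Of 16 glycolysis and fermentation genes, 11 were lower and 1 was higher in pfs2-E104A, against 22.1% and 23.0% of all genes, with a median of -0.25. The glyceraldehyde-3-phosphate dehydrogenase gene gpd3 had 187, 195 and 154 CPM in pfs2-E104A and 389, 463 and 356 CPM in pta1-T524M, against 244, 241 and 298 CPM in WT. The enolase gene eno101 had 3429, 3406 and 2987 CPM in pfs2-E104A and 6105, 6381 and 5911 CPM in pta1-T524M, against 4090, 4148 and 4745 CPM in WT. At both genes WT lay between the mutants, and the log2 differences were -1.17 ± 0.10 for gpd3 and -0.91 ± 0.09 for eno101. The other glyceraldehyde-3-phosphate dehydrogenase gene tdh1 (log2 -0.72 ± 0.07), the phosphoglycerate kinase gene pgk1 (-0.57 ± 0.07) and the main alcohol dehydrogenase gene adh1 (-0.41 ± 0.07) were also lower. Of these, tdh1 is a member of the glucose-repressed list counted above, as one of its lower members. It averaged 3197 CPM in pfs2-E104A, 5282 in pta1-T524M and 4439 in WT, far above gpd3. Its place in that list therefore does not mark it as repressed in these cells. The 1 higher member was hxk2, a hexokinase gene (log2 0.19, edgeR adjusted p = 0.0038). The count of lower members was 7 without pfs2-E104A replicate 3.

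**Figure D2:**
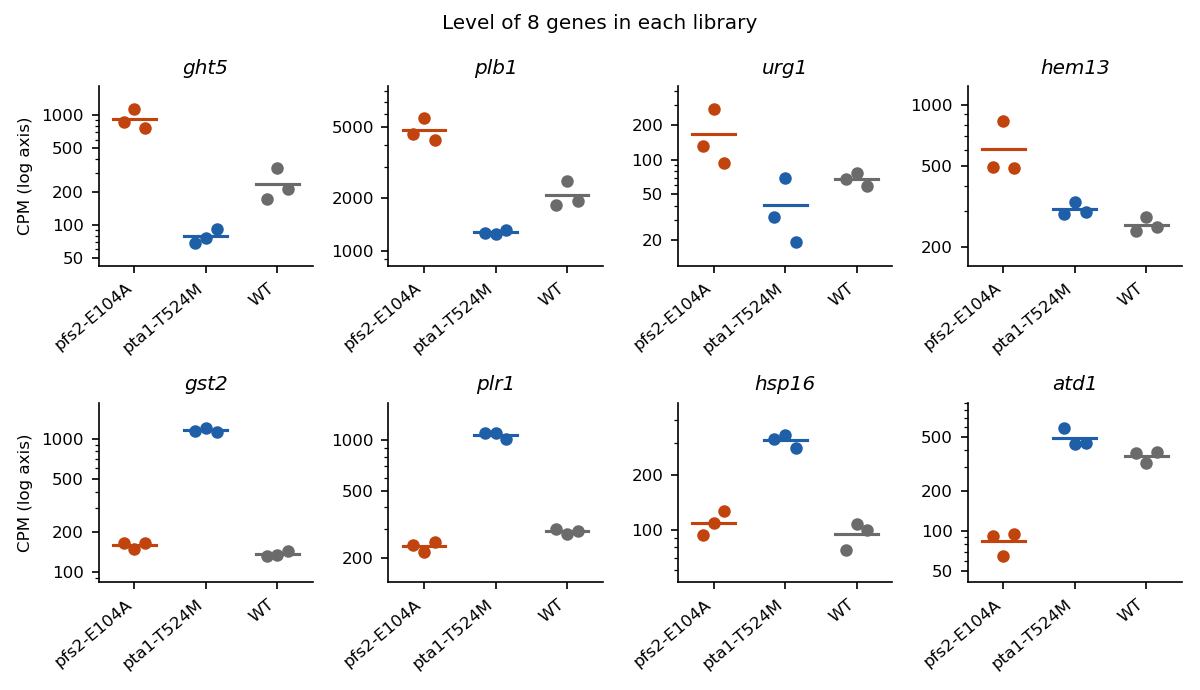
Level of 8 genes in each library (points; CPM, log axis) with the group mean (line), for pfs2-E104A, pta1-T524M and WT. At ght5 and plb1 all pfs2-E104A libraries lie above WT and all pta1-T524M libraries below it, whereas at gst2, plr1 and hsp16 pta1-T524M lies alone above the other groups and at atd1 pfs2-E104A lies alone below them.

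Genes of uracil use formed a second group with large differences. The gene urg1 encodes a GTP cyclohydrolase II family enzyme, urg2 a putative uracil phosphoribosyltransferase and uck2 a uridine kinase, and urg1 is known for its rapid induction by uracil in fission yeast. The urg1 gene had 132, 276 and 94.9 CPM in pfs2-E104A and 31.8, 69.4 and 19.1 CPM in pta1-T524M, against 68, 76.2 and 59.5 CPM in WT. The mutant groups did not overlap, but replicate 2 was the highest in each of them. The log2 difference was 2.08 ± 0.38 (edgeR adjusted p = 0.00012), and 1.51 to 2.72 over the alternative fits. The pattern was similar at urg2, with 145, 280 and 117 CPM in pfs2-E104A and 38, 89.1 and 28.6 CPM in pta1-T524M, against 88.4, 95.7 and 77.4 CPM in WT (log2 1.81 ± 0.32). Of 8 uracil and nucleotide genes tested, 4 were higher (urg1, urg2, uck2 and urg3) and 1 was lower (ura1), against 23.0% and 22.1% of all genes, with a median of 0.30. In the annotation urg3 is the next gene upstream of both urg1 and urg2, so these members are neighbours on the chromosome. The uridine kinase gene uck2 had 48.8, 91.6 and 41.4 CPM in pfs2-E104A and 20.8, 32.8 and 20.8 CPM in pta1-T524M, against 29.6, 29.3 and 27.6 CPM in WT (log2 1.29 ± 0.24). Over the alternative fits the log2 differences were 1.35 to 2.44 at urg2 and 0.86 to 1.54 at uck2.

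The other symbol-bearing genes with large positive differences had varied roles. The gene plb1, which encodes a secreted phospholipase B, had 4587, 5688 and 4274 CPM in pfs2-E104A and 1258, 1243 and 1317 CPM in pta1-T524M, against 1823, 2475 and 1914 CPM in WT. The groups did not overlap, and pfs2-E104A was 3.81-fold above pta1-T524M (log2 1.93 ± 0.10, edgeR adjusted p = 1.3e-12). The NEDD8 protease gene nep2 had 21.2, 24.9 and 25.3 CPM in pfs2-E104A and 5.02, 5.56 and 5.82 CPM in pta1-T524M, against 10.2, 11.5 and 10.6 CPM in WT (log2 2.12 ± 0.15). The gene aes1, annotated as a phenazine biosynthesis family protein, had 205, 273 and 273 CPM in pfs2-E104A and 61.1, 69.3 and 55 CPM in pta1-T524M, against 122, 159 and 115 CPM in WT (log2 2.02 ± 0.13). At nep2 and aes1, as at ght5 and plb1, WT lay between the mutants without overlap. By contrast, the beta-glucosidase gene psu2 had 2.26, 2.06 and 4.3 CPM in pfs2-E104A and 0.706, 0.59 and 0.945 CPM in pta1-T524M, against 2.62, 2.86 and 3.3 CPM in WT, so that pta1-T524M alone departed from WT (log2 between the mutants 1.90 ± 0.27). Another 3 genes had few reads: ftm2 (a predicted membrane protein; 42 reads over the pfs2-E104A libraries, 8 over the pta1-T524M libraries and 34 over WT), bit2 (a TOR signalling gene; 62, 26 and 77 reads) and rsv1 (a transcription repressor gene; 49, 22 and 36 reads). The calls at bit2 and rsv1 were lost when 1 pfs2-E104A library was left out (adjusted p = 0.0637 without replicate 3 for bit2 and 0.0581 without replicate 1 for rsv1), and bit2 then differed by a log2 of 1.01 instead of 1.55.

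Several neighbouring genes were higher in pfs2-E104A around rpp202, which encodes a P2 protein of the ribosomal stalk. The rpp202 gene had 983, 1631 and 1045 CPM in pfs2-E104A and 381, 333 and 374 CPM in pta1-T524M, against 930, 964 and 899 CPM in WT (log2 1.75 ± 0.24, edgeR adjusted p = 2.5e-06). Its neighbours were higher too: SPBC23G7.14, which overlaps it on the opposite strand (log2 1.39), the urea transporter gene SPBC23G7.13c (3.07 ± 0.27) and the proteasome ATPase gene rpt6 (1.07 ± 0.20), which follows SPBC23G7.13c on the same strand. SPBC23G7.13c had 3.37, 6.99 and 5.82 CPM in pfs2-E104A and 0.52, 0.59 and 0.764 CPM in pta1-T524M, against 2.29, 2.03 and 1.8 CPM in WT. At rpt6 the values were 257, 423 and 254 CPM in pfs2-E104A and 149, 151 and 146 CPM in pta1-T524M, against 247, 263 and 251 CPM in WT. At rpp202 and rpt6 the pta1-T524M libraries were all below WT, and replicate 2 of pfs2-E104A was above every other library. Of 34 proteasome genes in all, 3 were higher and 16 lower in pfs2-E104A, against 23.0% and 22.1% of all genes. Their differences were small, with a median log2 of -0.06 and a lowest value of -0.20. Of these genes, rpt6 was the only one that was called and at least 2-fold apart.

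Of 20 oxygen and sterol genes tested, 12 were higher in pfs2-E104A (11 or 12 under each alternative), against 23.0% of all genes, and the other 8 did not pass the test. The log2 differences ran between -0.19 and 1.06 with a median of 0.15. In fission yeast many sterol and haem synthesis genes are activated by the transcription factor Sre1 when oxygen or sterols are low. The coproporphyrinogen oxidase gene hem13 had 497, 831 and 492 CPM in pfs2-E104A and 293, 335 and 299 CPM in pta1-T524M, against a WT mean of 259 CPM (log2 0.97 ± 0.13, edgeR adjusted p = 2.8e-06). The sterol desaturase gene erg31 had 331, 408 and 333 CPM in pfs2-E104A and 161, 189 and 166 CPM in pta1-T524M, against 171, 216 and 173 CPM in WT (log2 1.06 ± 0.10). At both genes pfs2-E104A lay above the other groups without overlap. Replicate 2 of pfs2-E104A was the highest at both, and the hem13 log2 difference was 0.67 to 1.1 over the alternative fits. The squalene monooxygenase gene erg1 (log2 0.97 ± 0.10), the fatty acid desaturase gene ole1 (0.74 ± 0.12) and erg11 (0.41 ± 0.05) were also higher. The sre1 gene itself had 189, 286 and 184 CPM in pfs2-E104A and 139, 140 and 133 CPM in pta1-T524M, against 149, 152 and 157 CPM in WT. Its log2 difference was 0.68 ± 0.10, and 0.43 without pfs2-E104A replicate 2.

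Of 43 amino acid biosynthesis genes tested, 34 were higher and 2 lower in pfs2-E104A, against 23.0% and 22.1% of all genes, and 7 did not pass the test. Their log2 differences ran between -0.38 and 0.57 with a median of 0.31. The largest differences were in arginine synthesis: arg5 (log2 0.57 ± 0.04), arg3 (0.54 ± 0.04), arg4 (0.51 ± 0.05) and arg12 (0.49 ± 0.05). The arg5 gene had 403, 432 and 457 CPM in pfs2-E104A and 294, 291 and 287 CPM in pta1-T524M, against 385, 367 and 386 CPM in WT. Both lower members act in sulfur amino acid synthesis, met16 (log2 -0.38) and met26 (-0.31, and -0.18 without pta1-T524M replicate 2). The medians of the list against WT were 0.04 in pfs2-E104A and -0.26 in pta1-T524M, with the same WT libraries in both.

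**Figure D3:**
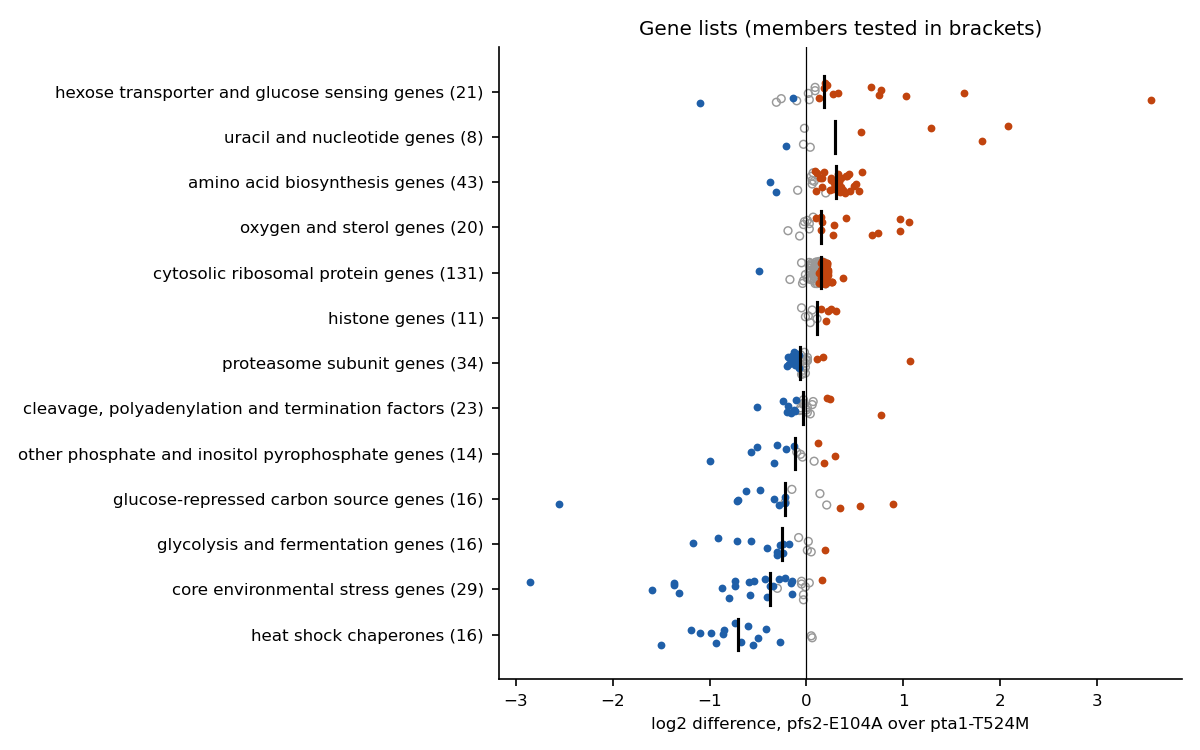
Log2 difference, pfs2-E104A over pta1-T524M, of each tested member of 13 gene lists (number tested in brackets). Filled points were called (orange higher, blue lower in pfs2-E104A), open points were not, and the bar is the list median, which falls to -0.71 for heat shock chaperones and reaches 0.31 for amino acid biosynthesis genes.

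Among the protein-coding genes with large negative differences were several that encode redox enzymes. The glutathione S-transferase gene gst2 had 164, 148 and 164 CPM in pfs2-E104A and 1142, 1191 and 1129 CPM in pta1-T524M, against 131, 134 and 143 CPM in WT. The pta1-T524M libraries stood apart from both other groups, and gst2 was 7.27-fold lower in pfs2-E104A (log2 -2.86 ± 0.09, edgeR adjusted p = 3.9e-17). The pyridoxal reductase gene plr1 averaged 236 CPM in pfs2-E104A and had 1097, 1100 and 1010 CPM in pta1-T524M, against 300, 278 and 291 CPM in WT (log2 -2.18 ± 0.06, edgeR adjusted p = 1.3e-17). The quinone oxidoreductase gene obr1 had 783, 735 and 795 CPM in pfs2-E104A and 2290, 2385 and 2336 CPM in pta1-T524M, against 928, 1003 and 798 CPM in WT (log2 -1.60 ± 0.10). At plr1 and obr1, as at gst2, pta1-T524M was the group far from WT, while plr1 in pfs2-E104A was also slightly below WT (log2 -0.29 ± 0.06).

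A pair of dehydrogenase genes that flank the pseudogene SPCC663.07c on the same strand had the same profile. SPCC663.08c, a short-chain dehydrogenase gene, had 12.2, 11.4 and 11.7 CPM in pfs2-E104A and 107, 120 and 110 CPM in pta1-T524M, against 11.8, 10.6 and 13 CPM in WT (log2 -3.25 ± 0.11, edgeR adjusted p = 5.2e-16). The dehydrogenase gene osr1 had 15.1, 16.6 and 17.1 CPM in pfs2-E104A and 65.2, 80.6 and 64.6 CPM in pta1-T524M, against 12.9, 14.3 and 15.3 CPM in WT (log2 -2.11 ± 0.11). The pseudogene between them averaged 10.4 CPM in pfs2-E104A, 12.6 in pta1-T524M and 11.7 in WT, a log2 difference of -0.27, whose call was lost without pfs2-E104A replicate 3 or pta1-T524M replicate 3. SPCC18B5.02c, annotated as a pseudogene, had 13.2, 11.8 and 13.8 CPM in pfs2-E104A and 140, 141 and 138 CPM in pta1-T524M, against 11.3, 13.2 and 12 CPM in WT (log2 -3.43 ± 0.12).

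Of 29 core environmental stress genes tested, 21 were lower and 1 was higher in pfs2-E104A, against 22.1% and 23.0% of all genes, with a median of -0.38 and 5 members at least 2-fold lower. These 5 were gst2, obr1, the drug exporter genes bfr1 and caf5, and pmp20, a peroxiredoxin gene. The bfr1 gene had 178, 162 and 200 CPM in pfs2-E104A and 455, 490 and 446 CPM in pta1-T524M, against 204, 201 and 212 CPM in WT (log2 -1.37 ± 0.08). The pmp20 gene had 142, 134 and 159 CPM in pfs2-E104A and 423, 347 and 351 CPM in pta1-T524M, against 221, 192 and 205 CPM in WT (log2 -1.37 ± 0.08). The trehalose phosphate synthase gene tps1 (log2 -0.87 ± 0.06), the sulfiredoxin gene srx1 (-0.80), the peroxiredoxin gene tpx1 (-0.74) and the catalase gene ctt1 (-0.74) were lower as well. The thioredoxin reductase gene trr1 (log2 -0.03, edgeR adjusted p = 0.42) and hmt2 (0.03, adjusted p = 0.57) did not pass the test, and the 1 higher member was pap1, which encodes an oxidative stress transcription factor (0.16, adjusted p = 0.00057). The list medians against the shared WT libraries were -0.10 in pfs2-E104A and 0.32 in pta1-T524M.

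Of 16 heat shock chaperone genes tested, 14 were lower, also in each alternative fit, against 22.1% of all genes, and the other 2 did not pass the test, with a median log2 difference of -0.71 beside 0.0066 for all genes. The small heat shock protein gene hsp16 had 93.7, 108 and 126 CPM in pfs2-E104A and 316, 332 and 280 CPM in pta1-T524M, against 77.2, 107 and 99.6 CPM in WT (log2 -1.50 ± 0.10, edgeR adjusted p = 4.6e-11). The Hsp90 gene hsp90 had 3878, 3736 and 3847 CPM in pfs2-E104A and 7992, 7460 and 7307 CPM in pta1-T524M, against 4666, 4170 and 4545 CPM in WT (log2 -0.99 ± 0.06). The gene of the Hsp70-Hsp90 adaptor, sti1, had 755, 753 and 733 CPM in pfs2-E104A and 1810, 1669 and 1634 CPM in pta1-T524M, against 912, 804 and 857 CPM in WT (log2 -1.19 ± 0.06). In all of these the pta1-T524M libraries were the highest without overlap. The Hsp40 gene psi1 (log2 -1.10 ± 0.09), the Hsp70 genes ssa2 (-0.93 ± 0.06) and ssa1 (-0.86 ± 0.11) and the disaggregase gene hsp104 (-0.74) followed. Those 2 were ssz1 (0.05) and sks2 (0.06), which encode Hsp70 proteins that act at the ribosome. The list medians against the shared WT libraries were -0.04 in pfs2-E104A and 0.60 in pta1-T524M.

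Further protein-coding genes with large negative differences belonged to none of the lists described so far. Some of them, such as mel1 and mug93, are members of lists counted further below. The gene gnr1, which encodes a G protein beta subunit, had 3.17, 2.59 and 3.83 CPM in pfs2-E104A and 17.6, 15.2 and 17.1 CPM in pta1-T524M, against 8.37, 7.32 and 8.51 CPM in WT. The 3 groups did not overlap, with WT between the mutants (log2 -2.38 ± 0.13, edgeR adjusted p = 1.8e-12). On the opposite strand of gnr1 lies the lncRNA SPNCRNA.1158, which averaged 40.4 CPM in pfs2-E104A, 23.7 in pta1-T524M and 29.1 in WT, a log2 difference of 0.77. The gene spo6, which encodes the regulatory subunit of a meiotic kinase, had 4.08, 3.81 and 4.77 CPM in pfs2-E104A and 13.1, 13.4 and 12.4 CPM in pta1-T524M, against 5.83, 6.01 and 4.65 CPM in WT (log2 -1.62 ± 0.12). The meiotically upregulated gene meu43 had 1.19, 1.01 and 1.05 CPM in pfs2-E104A and 2.97, 3.2 and 2.62 CPM in pta1-T524M, against 2.79, 2.79 and 2.32 CPM in WT (log2 -1.42 ± 0.20). Unlike at spo6, it was pfs2-E104A that lay apart from WT at meu43. The phosphatase-like gene SPBPB2B2.06c had 7.52, 6.4 and 6.61 CPM in pfs2-E104A and 39.7, 37 and 33 CPM in pta1-T524M, against 10.1, 8.08 and 9.97 CPM in WT (log2 -2.41 ± 0.14). Another 3 genes with large negative differences had few reads: mel1 (a melibiase gene; 13 reads over the pfs2-E104A libraries, 105 over pta1-T524M and 30 over WT), its divergent neighbour pcm2 (13, 81 and 47 reads) and mug93 (6, 27 and 22 reads). The call at mug93 was lost without pfs2-E104A replicate 1 (log2 -1.37, adjusted p = 0.18) among other alternatives.

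Among the 23 genes of cleavage, polyadenylation and termination factors, 8 were lower (34.8%) and 3 higher (13.0%) in pfs2-E104A than in pta1-T524M, against 22.1% and 23.0% of all genes. The median was -0.03, and the 11 called members are a share close to the 45.1% of all genes called. The gene mpe1, which encodes a zinc-knuckle subunit of CPF, had 174, 179 and 186 CPM in pfs2-E104A and 103, 111 and 103 CPM in pta1-T524M, against 102, 97.3 and 103 CPM in WT. All pfs2-E104A libraries lay above all others (log2 0.77 ± 0.04, edgeR adjusted p = 3.1e-12). The gene seb1, which encodes an RNA-binding termination factor that recognises RNA polymerase II, had 124, 112 and 116 CPM in pfs2-E104A and 167, 164 and 171 CPM in pta1-T524M, against 168, 153 and 177 CPM in WT. Here pfs2-E104A lay below the other groups (log2 -0.51 ± 0.05, edgeR adjusted p = 4.9e-08). The termination factor gene rhn1 (log2 -0.24 ± 0.05) and rna14 (-0.20 ± 0.04) were lower, and the CPF phosphatase gene ssu72 (0.24 ± 0.06) and yth1 (0.21 ± 0.06) higher. The genes ysh1, pla1, msi2 and pcf11 did not pass the test. Of 23 nuclear RNA surveillance genes, 6 were lower (26.1%) and 3 higher (13.0%), so that neither share was far above that of all genes. The farthest was rrp6, the gene of the nuclear exosome exonuclease (log2 -0.28 ± 0.04).

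LncRNAs were called about as often as mRNAs, but more of their called differences were large. Of the 1166 lncRNAs tested by annotated class, 289 were higher and 202 lower in pfs2-E104A, so that 42.1% were called beside 46.1% of protein-coding genes. By contrast, 10.8% of lncRNAs but 2.2% of protein-coding genes were called and at least 2-fold apart, which is a description of genes at different depths and carries no test. LncRNAs took 1.09 to 1.11% of the counts in pfs2-E104A libraries, 0.962 to 1.02% in pta1-T524M libraries and 1.02 to 1.06% in WT libraries. The farthest lower lncRNA was SPNCRNA.1271, which overlaps the kinase gene ckk2 on the opposite strand and is annotated as a possible alternative UTR. It had 4.36, 3.7 and 4.93 CPM in pfs2-E104A and 61.2, 51.6 and 52.2 CPM in pta1-T524M, against 2.87, 4.06 and 5.17 CPM in WT (log2 -3.67 ± 0.15, edgeR adjusted p = 9.3e-15). The ckk2 gene averaged 45.5 CPM in pfs2-E104A, 37 in pta1-T524M and 44.6 in WT, a log2 difference of 0.30.

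The farthest higher lncRNA was SPNCRNA.742, with 11.7, 23.2 and 16.8 CPM in pfs2-E104A and 2.23, 2.27 and 2.15 CPM in pta1-T524M, against 3.17, 5.33 and 4.2 CPM in WT (log2 2.94 ± 0.25, edgeR adjusted p = 2.2e-09). It overlaps the methionine synthase gene met26 on the same strand and is annotated as a possible alternative UTR. The met26 gene averaged 3419 CPM in pfs2-E104A, 4230 in pta1-T524M and 3809 in WT (log2 -0.31). The counts of SPNCRNA.742 therefore depend on how shared reads were assigned. SPNCRNA.616, on the opposite strand of the galactosyltransferase gene otg1, had 1.78, 1.69 and 2.2 CPM in pfs2-E104A and 9.25, 10.2 and 9.89 CPM in pta1-T524M, against 4.04, 3.46 and 3.3 CPM in WT (log2 -2.37 ± 0.14). The otg1 mRNA averaged 74.1 CPM in pfs2-E104A, 72.2 in pta1-T524M and 78.2 in WT. SPNCRNA.911, to which the annotation used gives no entry, had 0.792, 0.688 and 0.419 CPM in pfs2-E104A and 3.72, 3.45 and 2.91 CPM in pta1-T524M, against 0.875, 0.836 and 1.12 CPM in WT (log2 -2.37 ± 0.22). SPNCRNA.1255 (log2 2.67 ± 0.50; 53, 10 and 41 reads over the pfs2-E104A, pta1-T524M and WT libraries) and the U5 snRNA gene snu5 (2.75 ± 0.68; 29, 5 and 14 reads) rested on few reads. SPCC569.02c, an uncharacterized protein-coding gene, had 7.8, 9.05 and 8.23 CPM in pfs2-E104A and 1.49, 1.77 and 1.89 CPM in pta1-T524M, against 2.96, 3.14 and 0.562 CPM in WT (log2 2.28 ± 0.32). In WT replicate 3 this gene and its neighbours SPCC569.03 and SPCC569.01c were far below the other WT libraries (5.02 against 24.9 and 21.1 CPM at SPCC569.03). Of 42 snoRNA and snRNA genes, 8 were higher (19.0%) and 4 lower (9.52%), with a median of 0.18. Both shares were below the 23.0% and 22.1% of all genes.

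For the remaining lists, 23.0% of all genes were higher and 22.1% lower in comparison. Of 131 cytosolic ribosomal protein genes, a list that does not include rpp202, 43 were higher and 1 lower in pfs2-E104A. The median was 0.15 and the highest value 0.38, and the lower member was rps1401 (log2 -0.49 ± 0.07). The number of higher members was 98 when the 6 libraries were fitted alone. It was 15 to 28 when any 1 of the 6 libraries was left out, lowest without pta1-T524M replicate 2. Ribosome biogenesis factors had 2 of 27 higher and 8 lower, led by nop14 (log2 -0.51 ± 0.07). Of 11 histone genes 5 were higher and the other 6 did not pass the test, the largest difference being pht1, the H2A.Z gene (0.31 ± 0.03). Of 10 iron-using genes that the repressor Php4 controls, 7 were higher and 3 lower, all by less than 1.5-fold, and of 12 iron starvation-induced genes 2 were higher and 4 lower. The ferric reductase gene frp1 was the farthest member of that iron starvation list that had many reads (log2 1.09 ± 0.24, edgeR adjusted p = 0.00091), while shu1 had few reads and lost its call (log2 1.41) without pfs2-E104A replicate 3 (1.05) or pta1-T524M replicate 3 (1.09). Among 11 copper and zinc genes, 3 were higher and 3 lower; the copper transporter gene ctr5 had 95.8, 151 and 89.5 CPM in pfs2-E104A and 50.5, 41.1 and 45.4 CPM in pta1-T524M, against 87.6, 107 and 138 CPM in WT (log2 1.29 ± 0.24), so that pta1-T524M alone lay below WT.

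Several nutrient transporter genes outside glucose transport were also higher in pfs2-E104A. The oligopeptide transporter gene isp4 had 79, 124 and 73.6 CPM in pfs2-E104A and 36.1, 43.1 and 31.3 CPM in pta1-T524M, against 58, 58.2 and 56.3 CPM in WT (log2 1.32 ± 0.19, edgeR adjusted p = 6.4e-06). The peptide transporter gene ptr2 had 101, 99.5 and 112 CPM in pfs2-E104A and 51.3, 48.9 and 52.9 CPM in pta1-T524M, against 76.1, 81.6 and 94.5 CPM in WT (log2 1.03 ± 0.10). At both genes WT lay between the mutants without overlap. The ammonium transporter gene amt3 was also higher (log2 0.97 ± 0.11). Of 11 amino acid and peptide transporter genes, 4 were higher and the other 7 did not pass the test, and of 19 nitrogen starvation and sexual differentiation genes 4 were higher and 1 lower. Of 13 meiotic transcripts removed by the RNA-binding protein Mmi1 in mitotic cells, 2 were higher (15.4%) and 3 lower (23.1%), near or below the 23.0% and 22.1% of all genes, with mcp7 the farthest (log2 1.41 ± 0.09).

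Of 73 subtelomeric genes on chromosome I, 18 were higher (24.7%) and 20 lower (27.4%), close to the 23.0% and 22.1% of all genes. Of these, 4 were at least 2-fold higher and 12 at least 2-fold lower, where 1.94% and 2.02% of all genes were. Of 70 on chromosome II, 14 were higher and 25 lower (35.7%), with 5 at least 2-fold higher and 9 at least 2-fold lower. Meiotically upregulated genes had 20 of 110 higher (18.2%) and 24 lower (21.8%), and mitochondrial respiration genes 4 of 33 higher (12.1%) and 7 lower (21.2%), all at or below the shares of all genes. Thiamine-regulated genes had 3 of 8 higher and 1 lower, and flocculin-type cell surface genes and their regulators 2 of 13 in each direction. Of the mating genes, mam1, the M-factor exporter gene, was higher (log2 0.43 ± 0.06) as the only one of 7 M-cell genes called; of 5 P-cell genes, map1, which encodes a transcription factor, was lower (-0.80 ± 0.10) and map2, the P-factor gene, was higher (0.41 ± 0.12; 0.32 and no call without pta1-T524M replicate 1).

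Set against the same WT libraries in the same fit, pfs2-E104A had 2152 called genes (34.2%) and pta1-T524M had 2416 (38.4%). Since these comparisons share their WT libraries and the marker at asp1, no overlap between them is given. Side by side, ght5 differed from WT by a log2 of 1.97 ± 0.22 in pfs2-E104A and -1.60 ± 0.23 in pta1-T524M, plb1 by 1.23 ± 0.10 and -0.70 ± 0.10, and gnr1 by -1.34 ± 0.14 and 1.04 ± 0.11. In contrast, gst2 differed by 0.22 ± 0.08 in pfs2-E104A and 3.08 ± 0.09 in pta1-T524M, and hsp16 by 0.21 ± 0.10 and 1.71 ± 0.10. The reverse was seen at atd1, with -2.12 ± 0.14 in pfs2-E104A and 0.44 ± 0.13 in pta1-T524M, and at mpe1, with 0.83 and 0.07.

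**Figure D4:**
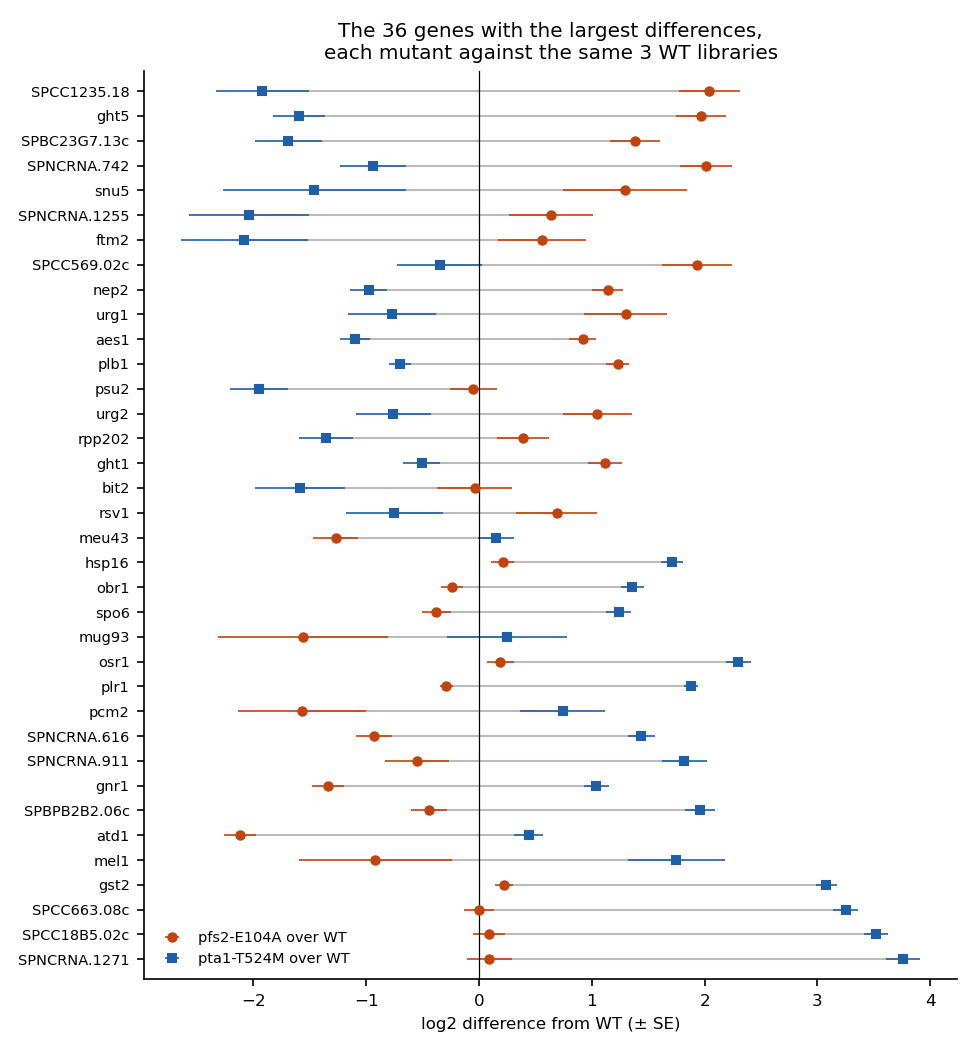
Log2 difference from WT (± SE) in pfs2-E104A (orange circles) and pta1-T524M (blue squares) for the 36 genes with the largest differences between the mutants, ordered from the highest pfs2-E104A over pta1-T524M value (SPCC1235.18) to the lowest (SPNCRNA.1271). Both mutants are set against the same 3 WT libraries; towards the top several genes such as ght5 lie on opposite sides of 0, and in the lowest rows, such as gst2, orange circles lie near 0 with blue squares far to their right.

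Across the 8 groups of the series, the levels of ght5 and plb1 were highest in pfs2-E104A (means 935 and 4850 CPM), and atd1 was lowest there (83.5 CPM). The second pfs2 allele, pfs2-V180F, had 145 CPM of ght5, 1826 CPM of plb1 and 944 CPM of atd1. Levels of gst2 and SPNCRNA.1271 were highest in pta1-T524M (1154 and 55 CPM), followed by msi2-G252E for gst2 (618 CPM) and by cft1-L249Q for SPNCRNA.1271 (18.2 CPM). The level of mpe1 was 180 CPM in pfs2-E104A and 106 CPM in pta1-T524M, with pfs2-V180F higher at 225 CPM and WT lowest at 101 CPM. By their labels, msi2-G252E, pfs2-V180F and ysh1-L74F are h- and carry the asp1 cassette too. The pla1-Y86L strain is h- with kanMX at pla1 instead, and cft1-L249Q is h+ with no cassette named. The orders therefore mix strains that differ in marker and mating type. They are descriptions and were not tested.

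**Figure D5:**
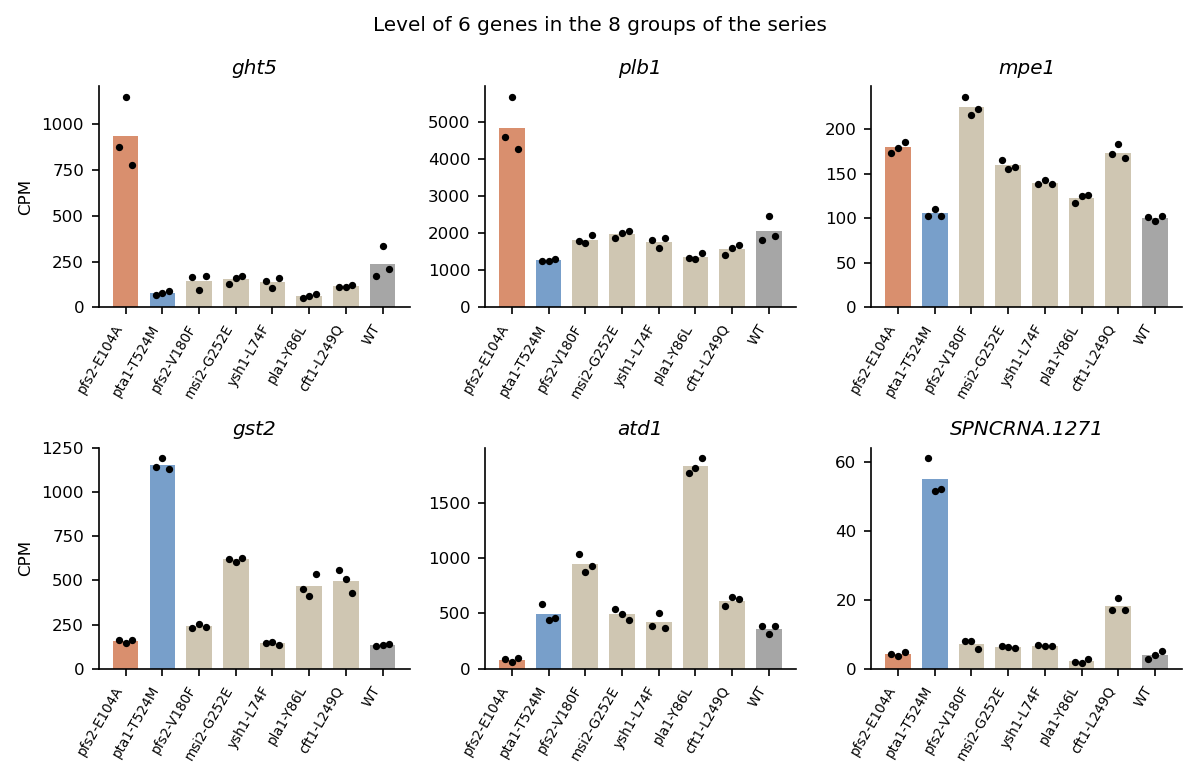
Mean level (bars, CPM) and single libraries (points) of 6 genes in the 8 groups, with pfs2-E104A and pta1-T524M at the left and WT at the right. The pfs2-E104A bar is the tallest at ght5 (935 CPM) and plb1 (4850 CPM) and the shortest at atd1 (83.5 CPM), and the pta1-T524M bar is the tallest at gst2 (1154 CPM) and SPNCRNA.1271 (55 CPM).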

How the data were processed

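A directional kit and paired-end reads were used, per the labels' protocols. One table of raw counts, genes by 24 libraries, was deposited; HISAT2 2.1.0, SAMtools, HTSeq 0.10.0, DESeq2 and build ASM294v2 are named in the submitters' processing notes. No source used here gives the strand setting of the counting. The deposited comparison tables were not used. Names, classes and neighbours came from the RefSeq annotation of ASM294v3 (6839 of 6988 identifiers matched); no coordinates are given.

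Counts were analysed with edgeR 4.0.16 in R 4.3.3: filterByExpr, TMM scaling and a quasi-likelihood fit of 1 mean per group to all 24 libraries (16 residual degrees of freedom; biological coefficient of variation 4.9%), with Benjamini-Hochberg adjustment over 6287 genes. A log2 difference is pfs2-E104A over pta1-T524M. Its SE was derived from the test, as the absolute log2 difference divided by the square root of the F statistic. Intervals use that SE and those residual degrees of freedom, so both are approximate. CPM are scaled by TMM. The code was tested on simulated data. Alternatives were other scaling, no filter, DESeq2 1.42.0, the 6 libraries alone, a replicate block and leaving out each library.

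Named genes are the mutated, asp1 and PHO genes, the 12 symbol-bearing coding genes and 6 others per direction with the largest differences among called, 2-fold, non-overlapping genes, and up to 6 called members of each of 33 lists (not all printed); other named genes, such as neighbours and list members without a call, were chosen after their values were seen. Members and lists were chosen with earlier results of these data known. The labels call replicates biological; p-values reflect the spread among them.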

Additional observations from a re-analysis of the deposited data

Results flagged for a closer look

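At 9 of the genes with the largest differences, the mutants lay on opposite sides of WT, each called against WT also when any 1 library was left out, and the difference between the mutants was itself called. On the higher side in pfs2-E104A these were ght5 (log2 3.56, pfs2-E104A over pta1-T524M), its upstream neighbour SPCC1235.18 (3.96), the urea transporter gene SPBC23G7.13c (3.07), the NEDD8 protease gene nep2 (2.12), aes1 (2.02) and the phospholipase gene plb1 (1.93). On the lower side they were gnr1 (-2.38), the lncRNA SPNCRNA.616 (-2.37) and plr1 (-2.18). Against the same WT libraries, the log2 differences in pfs2-E104A and pta1-T524M were 1.14 and -0.98 at nep2, 0.92 and -1.10 at aes1, 2.04 and -1.92 at SPCC1235.18, 1.38 and -1.69 at SPBC23G7.13c, -0.93 and 1.44 at SPNCRNA.616, and -0.29 and 1.88 at plr1. Of the 9, plr1 was the most uneven. The part of the asp1 marker, which both mutants carry and WT lacks, in their distance from WT was not tested.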

How the results depend on the processing

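The count of called genes between the mutants (2836) was 2803 with RLE scaling, 2806 without the filter, 2830 with DESeq2, 2691 with 6 libraries alone and 2388 to 2539 without any 1 mutant library; genes also at least 2-fold apart numbered 237 to 266 over all alternatives. Against WT the counts without 1 library were 1600 to 2008 for pfs2-E104A and 1976 to 2150 for pta1-T524M. RLE scaling moved the median of all genes by -0.0082. The main fit did not pair libraries by replicate number. Correlations of deviations from the group means were -0.012, 0.116 and 0.064 between libraries of the 2 mutants numbered 1, 2 and 3 alike. Between unlike numbers they ran from -0.101 to 0.044. Whether libraries of the same number share a batch was not tested. With a replicate block the count was 2900 over all libraries and 3054 over the 6, beside 2691 for the 6 without it. The block over all libraries shared 2807 of the 2836 main calls, and DESeq2 made 2739 of the 2836.

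Of 188 named genes, 185 were called in the main fit, since the naming rule mostly picks called genes. Of the named genes, 25 lost their call under at least 1 alternative. None gained one, but only the few that were not called could. Ribosomal protein genes higher in pfs2-E104A (43) numbered 98 in the 6 libraries alone, 108 with the replicate block there and 15 to 28 without 1 library; lower glycolysis genes (11) numbered 7 to 11 without 1 library. The cause was not tested. Among the named genes, signs changed at 3 that were not called. The pta1 difference (0.01) was -0.0014 with RLE, -0.00079 with DESeq2, -0.0025 in the 6 libraries alone, -0.0029 with the replicate block there and -0.03 to 0.02 without 1 library. The tgp1 difference (0.01) was -0.0018 with that block and -0.08 to 0.08 without 1 library, and nc-tgp1 (-0.06) was -0.15 to 0.00089 without 1 library. The call at mug93, which has few reads, was lost under 4 alternatives.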

Other observations

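Differences in both directions were also seen among genes that the rule for named genes did not reach, chosen here after their values were seen. The lncRNA SPNCRNA.863 averaged 290 CPM in pfs2-E104A, 62.8 CPM in pta1-T524M and 109 CPM in WT, a log2 difference of 2.21 between the mutants (edgeR). The lncRNA SPNCRNA.472, next to the pseudogene SPCC18B5.02c on the opposite strand, had 0.99, 1.64 and 1.36 CPM in pfs2-E104A and 4.83, 4.68 and 3.89 CPM in pta1-T524M, against 1.5, 1.83 and 1.39 CPM in WT. It was lower in pfs2-E104A than in pta1-T524M (log2 -1.77 ± 0.20, edgeR adjusted p = 1.3e-07), as the pseudogene was.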
